A study of Mus musculus with 16 samples.

Results

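Mitochondrial ribosomal protein genes were followed in dispersed pancreatic islet cells of Grp78 flox/flox mice across 4 treatments. Members were taken by their symbol, Mrpl or Mrps followed by a digit, with no use of measured values, which gave 78 of the 25105 genes listed. Of these, 49 symbols begin with Mrpl and 29 with Mrps. By place in the particle, 51 belong to the large subunit and 26 to the small subunit, and Mrps36 belongs to neither. Poly(A) RNA of 16 libraries was sequenced, and each library comes from 1 of 4 islet preparations, named F1, F2, M1 and M2. The labels do not spell out the letters, and the study used adult mice, 2 female and 2 male. Each preparation was split over adenovirus carrying LacZ with DMSO (Ad-LacZ), adenovirus carrying Cre recombinase with DMSO (Ad-Cre), and both viruses with the pan JNK inhibitor JNK-IN-8 (Ad-LacZ_JNKi and Ad-Cre_JNKi), all kept for 72 hours in 15 mM glucose. The comparisons ask what Cre, meant to lower Grp78, and the inhibitor do to these cells.

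The values are RPKM, read counts scaled for gene length and for library depth. Depth, inferred from what a single read is worth in each library, was 7.7 to 25.5 M reads. The shallowest library, Ad-Cre_JNKi of F2, is also the only library whose column name carries another prefix and lane code. Hspa5, the gene that encodes GRP78, averaged 438 ± 49.0 RPKM under the Ad-LacZ label and 1264 ± 231 RPKM (SD, n = 4 each) under the Ad-Cre label, a log2 fold change of 1.51 (SE 0.18, adjusted p = 0.00224). RPKM of the whole gene was thus not lower under the Ad-Cre label, and each direction below is that of libraries as labelled. Cre removes only part of the gene, and reads from the removed exons were not looked at apart. By qPCR on parallel aliquots of the RNA, the paper reports that Grp78 was knocked down. The Hspa5 value alone does not show that labels were exchanged. Syvn1, a gene of the ER stress response, was also higher under the Ad-Cre label (68.4 against 27.1 RPKM). The virus was given to the whole mix of dispersed cells, not to β cells alone. Summed β cell markers (8 genes) were high in every library, with group medians of 46550 to 68810 RPKM, and acinar cell markers (8 genes, 3 or 4 of them at 0 throughout a group) did not exceed 0.713 RPKM. In such bulk samples, fewer cells of a type and less RNA per cell cannot be told apart.

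Mitochondria carry their own ribosome, which makes the few proteins encoded by mitochondrial DNA. These proteins are core subunits of the respiratory chain and of ATP synthase. The ribosome's RNA comes from mitochondrial DNA, but all its proteins are encoded in the nucleus, made in the cytosol and imported, so that a full particle needs matched supply of many subunits. In β cells, respiration links glucose to insulin release. Some members have a counterpart in bacterial ribosomes and others occur only in mitochondria.

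The promoters of the members called in Ad-Cre against Ad-LacZ are shown as the stretches just before their RefSeq starts. The starts used in these cells were not measured. In the GENCODE M21 annotation Mrpl1 and Mrpl9 begin further upstream, at positions 96209493 and 94443318. Mrps18b begins further downstream there, at position 35916389. Under the Ad-Cre label Mrpl52, Mrpl9 and Mrps18b were higher. Mrpl1 was lower, and its promoter was added after its values were seen. Each line gives the 250 bases before the RefSeq start (GRCm38.p6), 5′ to 3′ on the strand of the gene. They lie at chr14:54426659-54426908 (Mrpl52, plus strand), chr3:94443086-94443335 (Mrpl9, plus), chr17:35916441-35916690 (Mrps18b, minus) and chr5:96209865-96210114 (Mrpl1, plus). Capitals mark matches, on either strand, to CCGGAAG (ETS factors), ATGGCGG (YY1-like), GCGC repeated after any 2 bases (NRF1-like), CACGTG (E-box), CCAAT, TGACGTCA (CRE) or CCACG (the end of the ER stress element). CCACG overlaps an E-box where CCACGTG stands.
Mrpl52: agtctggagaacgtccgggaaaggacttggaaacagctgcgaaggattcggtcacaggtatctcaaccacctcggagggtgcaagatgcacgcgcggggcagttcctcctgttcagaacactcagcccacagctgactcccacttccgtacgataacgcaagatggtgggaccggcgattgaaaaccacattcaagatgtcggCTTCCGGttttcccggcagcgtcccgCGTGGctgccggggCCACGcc
Mrpl9: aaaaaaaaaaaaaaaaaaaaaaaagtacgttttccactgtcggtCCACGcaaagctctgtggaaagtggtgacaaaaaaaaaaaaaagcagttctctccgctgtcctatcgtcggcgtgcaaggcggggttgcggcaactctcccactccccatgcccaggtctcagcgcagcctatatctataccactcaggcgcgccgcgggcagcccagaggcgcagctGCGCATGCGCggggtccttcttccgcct
Mrps18b: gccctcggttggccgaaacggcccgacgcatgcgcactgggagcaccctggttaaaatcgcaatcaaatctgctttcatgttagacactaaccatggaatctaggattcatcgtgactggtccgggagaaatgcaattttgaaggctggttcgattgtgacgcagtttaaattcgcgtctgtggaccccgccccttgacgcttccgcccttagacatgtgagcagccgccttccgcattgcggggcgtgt
Mrpl1: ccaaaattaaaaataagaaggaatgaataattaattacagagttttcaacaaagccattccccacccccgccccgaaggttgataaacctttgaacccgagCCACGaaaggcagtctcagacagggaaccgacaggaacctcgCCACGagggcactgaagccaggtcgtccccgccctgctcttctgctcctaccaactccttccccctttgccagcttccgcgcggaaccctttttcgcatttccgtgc

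In Mrpl52 an ETS match begins 47 bases before the start and CCACG matches begin 21 and 7 bases before it, and a further ETS match lies just inside the gene. In Mrpl9 an NRF1-like match begins 28 bases and a CCACG match 206 bases before the start, and a YY1-like match lies 16 bases into the gene. Mrps18b has none of the 7 motifs in these 250 bases and an ETS match 44 bases past the RefSeq start. That ETS match lies before the GENCODE start of Mrps18b. Mrpl1 has CCACG matches at 149 and 107 bases before the RefSeq start. RefSeq windows from 250 before to 50 after the start, 75 for 69 of the 78 members and 32851 for all genes, put these in context. ETS letters were present in 34.7% of member windows and 8.86% of all windows. YY1-like letters stood in 17.3% and 4.05%, and NRF1-like letters in 18.7% and 6.23%. For CCACG the shares were 52% and 32.8%, for CCAAT 40% and 37.4%, for the E-box 9.33% and 7.15%, and for the CRE 2.67% and 1.79%. In the 250 bases before the start alone, YY1-like letters were no more frequent in members, at 1.33% against 2.21%. ETS letters stood there in 24% and 6.91%, NRF1-like letters in 13.3% and 4.98%, and CCACG in 48% and 28.3%. Over the full windows, those of the large and small subunit held ETS letters in 32% and 41.7%, and NRF1-like letters in 22% and 12.5%. Before the start alone the order for ETS was reversed, at 26% (large) and 20.8% (small). NRF1-like letters stood there in 18% and 4.17%. Member windows also had a higher median GC content, 58.7% against 52.7%, and no test was made of any of these shares. In the GENCODE M21 annotation, 18 members (23.1%) start within 1000 bp of a coding gene that runs the other way, against 6.79% of 21951 coding genes. Examples are Mrps12 with Sars2, which charges mitochondrial serine tRNA, at 172 bp, and Mrps18b with Ppp1r10 at 45 bp. By these GENCODE starts, the bases printed for Mrps18b lie past the start of Ppp1r10.

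Control cells held the members at very unequal levels per length. In the 4 Ad-LacZ libraries, the median over the 78 members was 9.03 RPKM, with 10.1 for the large and 7.00 for the small subunit. The highest was Mrps21, a small subunit protein, at 58.3 ± 10.4 RPKM. Next were Mrpl10, which holds the stalk of the large subunit, at 34.5 ± 4.87 RPKM, and Mrps12, a protein of the decoding centre, at 31.0 ± 4.12 RPKM (SD, n = 4). The lowest 3 were Mrps35 at 1.43 ± 0.210 RPKM, Mrps17 at 0.835 ± 0.0889 RPKM and Mrpl36 at 0.038 RPKM. Mrpl36, the counterpart of bacterial L36, had 0 to 3 reads in any library, which is too few to compare groups. Mrps17, the counterpart of S17, had 42 to 171 reads. Neither passed the filter on low values (more than 1 RPKM in 4 or more of a comparison's 8 libraries), and the other 76 members passed it in every comparison.

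**Figure D1:**
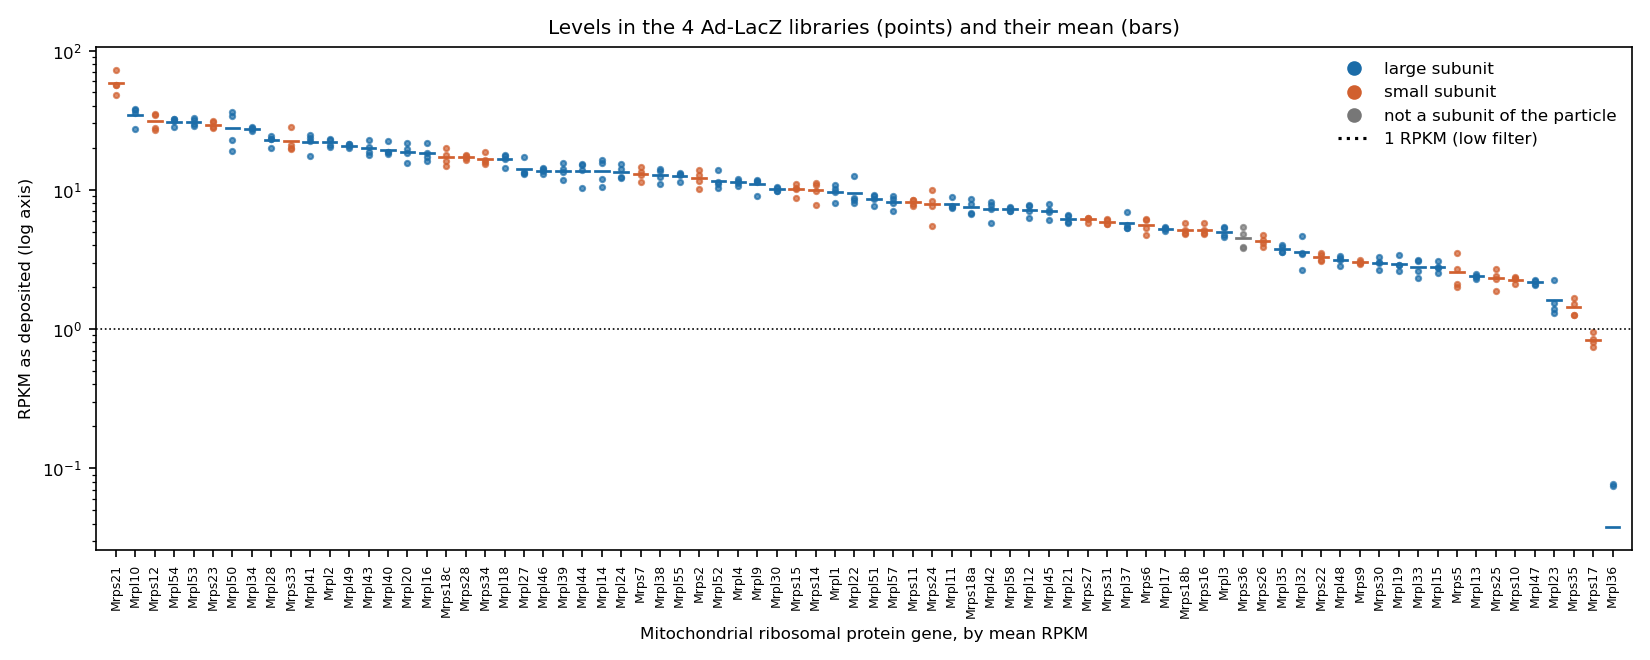
Each of the 78 members on the x axis, ordered by mean RPKM, with its 4 Ad-LacZ libraries as points and their mean as a bar, on a log y axis in RPKM as deposited. Libraries at 0 RPKM, which occur for Mrpl36, have no point, and Mrps17 and Mrpl36 lie below the dotted line at 1 RPKM.

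Annotated length goes into these levels, so their order does not give the supply of each protein. The 20 lowest members had a median annotated exonic length of 6126.5 bases and the 20 highest 1450 bases, while median reads were 333 and 728. The spread between preparations was moderate. Over the 76 members the coefficient of variation between the 4 libraries of a group had a median of 10.1% in Ad-LacZ, 9.97% in Ad-Cre, 11.1% in Ad-LacZ_JNKi and 15.6% in Ad-Cre_JNKi. Exons of 23 members overlap those of a coding gene, and whether reads were counted by strand is not given in the sources used here.

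Between Ad-Cre and Ad-LacZ the members moved little, with more of them above 0 than below. Differences are on the log2(RPKM + 1) scale after scaling between libraries, which understates the change of low genes. The median over 76 members was 0.12, beside -0.008 over all 11590 genes tested, and 52 of the 76 lay above 0. At an adjusted p under 0.05, 3 members rose (Mrpl52, Mrpl9 and Mrps18b) and 1 fell (Mrpl1). That is 3.95% of the members higher and 1.32% lower, where 7.29% of all genes tested were called higher and 9.58% lower, so the share of called members was under the background in each direction. Leaving out F1, M2 or F2 ended all 4 calls, and without M1 only Mrpl1 kept its call (adjusted p = 0.0317). Over the members the median absolute difference was 0.16, against 0.24 over all genes tested.

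Mrpl52, a large subunit protein found only in mitochondria, had 11.4, 10.3, 13.8 and 11.1 RPKM in the Ad-LacZ libraries of F1, M1, M2 and F2. In the libraries labelled Ad-Cre it had 17.2, 12.9, 24.0 and 17.6 RPKM in the same order. The groups overlapped, since M1 with Ad-Cre lay below M2 with Ad-LacZ, yet every preparation was higher with Ad-Cre. The log2 fold change was 0.55 (SE 0.13, adjusted p = 0.0245).

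Mrpl9, the counterpart of bacterial L9, had 11.6, 11.3, 11.7 and 9.03 RPKM with Ad-LacZ. With Ad-Cre it had 17.6, 15.5, 15.2 and 16.4 RPKM, so the groups did not overlap. Its log2 fold change was 0.53 (SE 0.13, adjusted p = 0.028). Bases shared with any other annotated gene make up 5.81% of its exons. The coding gene that overlaps is Oaz3, on the other strand, which averaged at most 0.335 RPKM in any group.

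Mrps18b, one of the proteins related to bacterial S18, had 4.78, 4.88, 5.16 and 5.80 RPKM with Ad-LacZ and 7.15, 5.82, 7.56 and 8.32 RPKM with Ad-Cre. The groups lay just apart, with M1 of Ad-Cre next to F2 of Ad-LacZ. Of its exonic bases 30.5% are shared with other annotated genes. The log2 fold change was 0.40 (SE 0.11, adjusted p = 0.0345).

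Mrpl1, the counterpart of bacterial L1, whose stalk helps spent tRNA leave, went the other way. It had 9.56, 8.08, 10.8 and 10.1 RPKM with Ad-LacZ and 4.44, 6.86, 6.69 and 6.42 RPKM with Ad-Cre, and was lower in each preparation. The groups did not overlap. Its log2 fold change was -0.60 (SE 0.12, adjusted p = 0.0142), the largest difference of the 76.

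**Figure D2:**
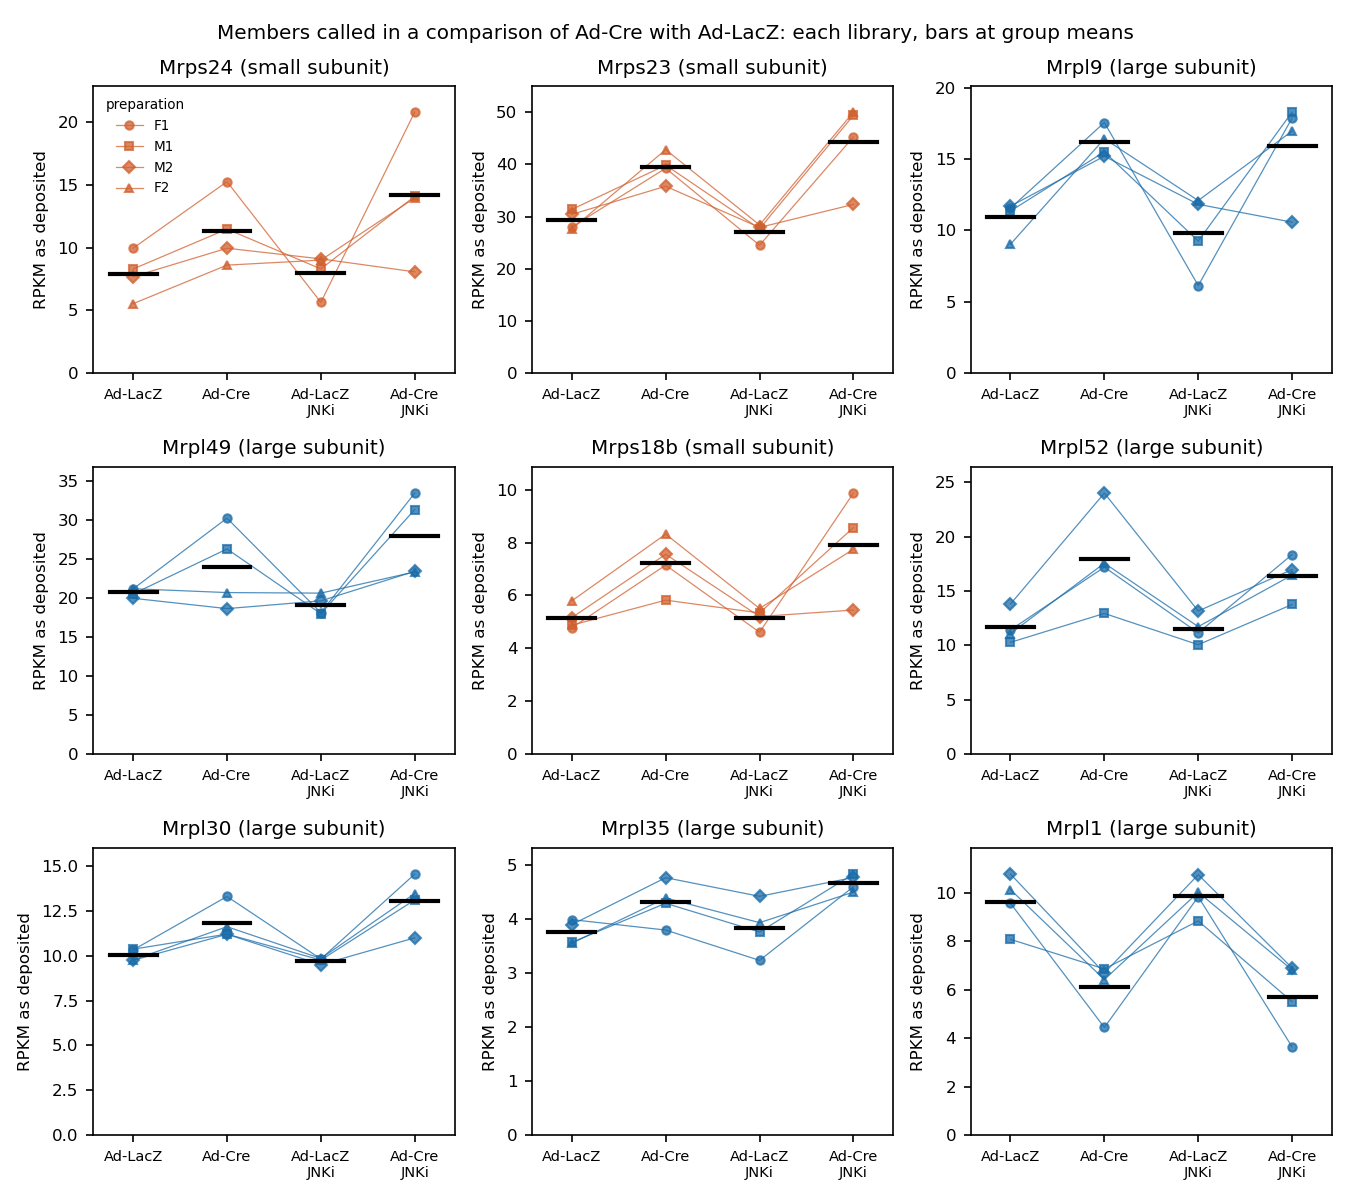
RPKM as deposited on the y axis for the 9 members called in either comparison of Ad-Cre with Ad-LacZ, by treatment on the x axis, with each preparation as a marker joined by a line and group means as black bars. Mrpl1 sits lower in both Ad-Cre groups, and the other 8 have higher means there, while the M2 library of Ad-Cre_JNKi stays at 10.6 RPKM for Mrpl9 and 8.07 RPKM for Mrps24, near the libraries with Ad-LacZ.

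The subunits moved alike in size. Over 50 large subunit members the median difference was 0.10, with 35 above 0, and over 25 small subunit members it was 0.12, with 16 above 0. Members with a bacterial counterpart had medians of 0.14 (large, 29 genes) and 0.16 (small, 15 genes). Those found only in mitochondria had medians of 0.072 (large, 21 genes) and 0.068 (small, 10 genes). Within single preparations the median over members ran from 0.22 (F1) through 0.10 (M1) and 0.076 (M2) to -0.007 (F2), where all genes tested had medians of 0.001, 0, -0.032 and -0.035. F1 thus carried much of the shift: the median of members less that of all genes was 0.12 with all preparations and 0.065 without F1.

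The preparations pair the libraries, and a fit with the preparation as a block gave more calls. In it 11 members rose and 3 fell, where 15.7% of all genes tested were higher and 18.7% lower, so 14.5% of members higher is again near the background and 3.95% lower is under it. Added to the 4 above were, among the higher, Mrps23, Mrps24, Mrps12, Mrpl2, Mrpl20, Mrpl16, Mrps28 and Mrps14, with adjusted p from 0.00679 (Mrps24) to 0.0486 (Mrps14). Mrps9 (-0.28, adjusted p = 0.042) and Mrpl42 (-0.44, adjusted p = 0.0157) were the added falls. Mrpl2, Mrpl20, Mrpl16, Mrps14, Mrps9 and Mrpl42 were named after their values were seen. In RPKM as deposited, the 4 libraries of each group did not overlap for 14 members higher (18.4%) and 4 lower (5.26%). Over all genes tested the shares were 11.8% and 15.9%, so by this measure the higher share was above the background.

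**Figure D3:**
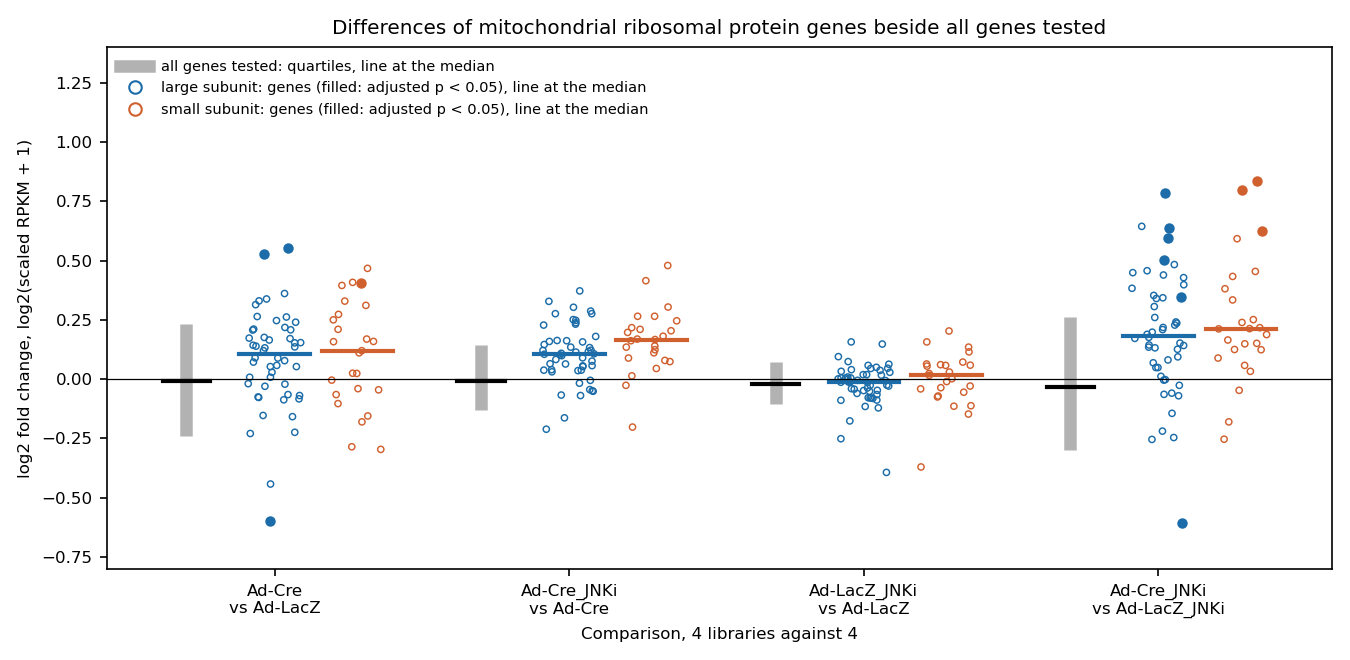
Log2 fold change on the y axis for the 4 comparisons on the x axis, with the quartiles of all genes tested as a grey bar and the members of each subunit as circles, filled at an adjusted p under 0.05, and a line at each median. The median of either subunit is above that of all genes in each comparison, by the least between Ad-LacZ_JNKi and Ad-LacZ, where the medians are -0.012 (large), 0.016 (small) and -0.021 (all genes). The values are scaled between libraries, and in RPKM as deposited the medians of Ad-Cre_JNKi against Ad-Cre turn to -0.044 (large), 0.036 (small) and -0.14 (all genes).

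With the inhibitor in Ad-Cre cells, most members had small positive differences that single-gene tests did not separate from the spread. The median over members was 0.12 in Ad-Cre_JNKi against Ad-Cre, beside -0.007 over 11503 genes, and 65 of the 76 lay above 0. The small subunit had a median of 0.17 (23 of 25 above 0) and the large subunit 0.11 (41 of 50 above 0). Limma called 0 members at an adjusted p under 0.05, where 0.0174% of all genes tested passed. At an unadjusted p under 0.05 there were 2 members higher and 0 lower, against 5.61% and 2.43% of all genes tested. With the preparation as a block 0 members passed the adjusted p, against 6.76% of all genes tested. At the unadjusted p the block gave 18 members higher and 1 lower, where 15.4% and 11.1% of all genes tested stood.

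This shift rests on how libraries are scaled. In RPKM as deposited the median of all genes was -0.14 in the same comparison, and that of the members -0.018, with 32 of the 76 above 0. Relative to all genes the members stood 0.12 higher on that scale and 0.13 higher after scaling. Within preparations the scaled member medians were 0.17 (F1), 0.19 (M1), 0.097 (M2) and 0.072 (F2), above the all-gene median of each.

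The 5 members with the smallest unadjusted p were Mrpl32, Mrpl35, Mrpl23, Mrps22 and Mrps36. Mrpl32, which the mitochondrial m-AAA protease trims before assembly, had 3.04, 3.26, 3.30 and 3.70 RPKM in Ad-Cre and 3.45, 3.60, 4.82 and 3.56 RPKM in Ad-Cre_JNKi (F1, M1, M2 and F2). The groups overlapped and M2 stood out. Its log2 fold change was 0.29 (SE 0.12, adjusted p = 0.579). Mrpl35 had 0.23 (SE 0.10), Mrpl23, at the exit of the peptide tunnel, 0.33 (SE 0.15), Mrps22 0.27 (SE 0.12) and Mrps36 0.29 (SE 0.14), with adjusted p between 0.622 and 0.668.

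In Ad-LacZ cells the inhibitor left the members about where all genes were. The median over members was -0.008 in Ad-LacZ_JNKi against Ad-LacZ, beside -0.021 over 11657 genes, with 35 of 76 above 0. Limma called 0 members, against 0.197% of all genes tested, and 0 with the block, against 0.335%. At an unadjusted p under 0.05, 0 members were higher and 2 lower, where 2.98% and 3.1% of all genes tested stood. The block gave the same counts, beside 6.25% and 6.64%. The members with the smallest unadjusted p were Mrps28, Mrpl50, Mrps18c, Mrpl45 and Mrpl44.

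Mrps28, the counterpart of bacterial S1, was the most separated of these. It had 17.0, 17.6, 16.4 and 17.6 RPKM in Ad-LacZ and 12.2, 14.2, 12.7 and 13.3 RPKM in Ad-LacZ_JNKi, with no overlap. Its log2 fold change was -0.37 (SE 0.11), but the adjusted p was 0.473. In Ad-Cre_JNKi it had 21.2, 16.9, 12.5 and 17.2 RPKM, where Ad-Cre had 24.8, 20.03, 20.3 and 21.5 RPKM, and those groups overlapped. Mrpl50, a large subunit protein found only in mitochondria, had 18.8, 22.6, 33.6 and 35.9 RPKM in Ad-LacZ and 17.5, 19.0, 21.7 and 23.1 RPKM in Ad-LacZ_JNKi. These values overlapped, with a log2 fold change of -0.39 (SE 0.16, adjusted p = 0.776). The other 3 had differences of 0.20 (Mrps18c, SE 0.11), 0.16 (Mrpl45, SE 0.097) and -0.25 (Mrpl44, SE 0.16).

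**Figure D4:**
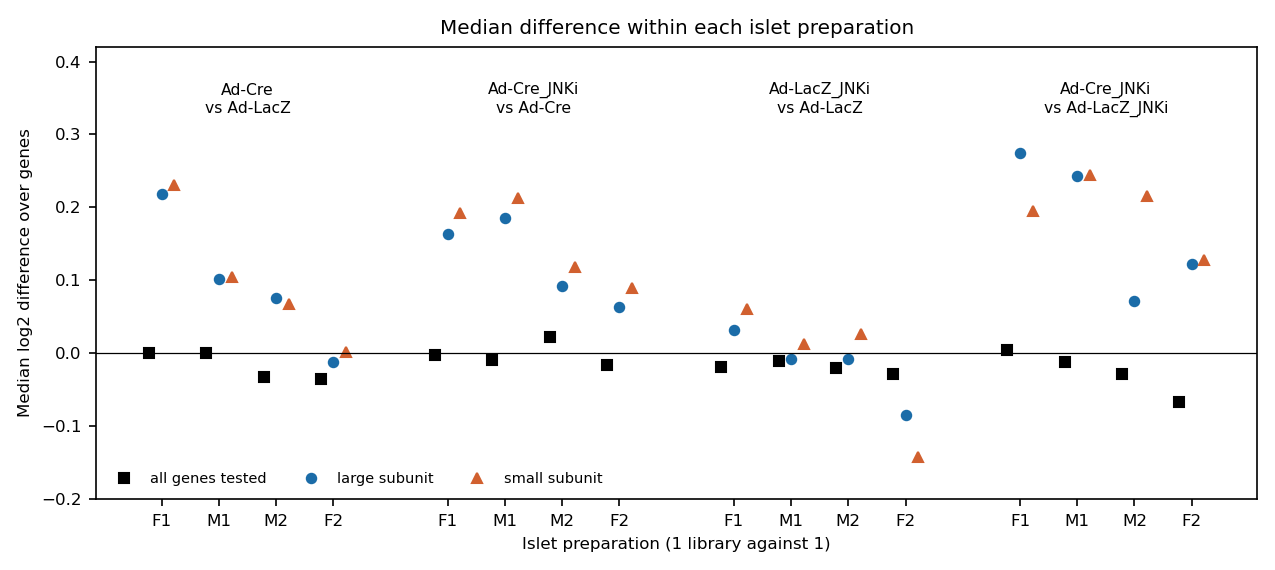
Median log2 difference over genes on the y axis, for each preparation on the x axis within each of the 4 comparisons, after scaling, for all genes tested (squares), the large subunit (circles) and the small subunit (triangles). In Ad-Cre against Ad-LacZ the large subunit runs from 0.22 in F1 to -0.012 in F2, and in the comparison with both arms under inhibitor all 8 subunit medians are above 0.

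Under the inhibitor, the difference between viruses was somewhat wider after scaling between libraries. In Ad-Cre_JNKi against Ad-LacZ_JNKi the median over members was 0.19, beside -0.033 over 11598 genes, and 62 of the 76 lay above 0. The large subunit had a median of 0.18 and the small subunit 0.21. At an adjusted p under 0.05, 8 members rose (Mrps24, Mrps23, Mrpl9, Mrpl49, Mrps18b, Mrpl52, Mrpl30 and Mrpl35) and 1 fell (Mrpl1). That is 10.5% of members higher, beside 10.1% of all genes tested, and 1.32% lower, beside 10.5%. All 4 members called without the inhibitor were called here too, in the same direction. With the block 11 rose (14.5%) and 0 fell, against 12.7% and 12.1% of all genes tested. In limma with the block Mrps24 (adjusted p = 0.0572) and Mrpl1 (adjusted p = 0.0524) were no longer called.

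Scaling bears on this count as well. In RPKM as deposited, 5 members were called higher and 4 lower, with a member median of 0.072 beside -0.14 over all genes. Without the inhibitor these medians were 0.12 and -0.004, so the member median itself was not larger under the inhibitor. On that scale the groups did not overlap for 6 members higher and 6 lower (7.89% each), where 8.93% and 20.7% of all genes tested stood. The preparations also weigh on it. Without F2 or without M1, 0 members were called, 1 without F1, and 17 without M2. Leaving out only the Ad-Cre_JNKi library of F2, whose column name carries another prefix and lane code, left 4.

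Mrps23, a small subunit protein found only in mitochondria, had 24.5, 27.7, 27.9 and 28.4 RPKM in Ad-LacZ_JNKi and 45.3, 49.4, 32.3 and 50.05 RPKM in Ad-Cre_JNKi. The groups did not overlap, although M2 lay well below the other 3 preparations. The log2 fold change was 0.80 (SE 0.17, adjusted p = 0.0111). Without the inhibitor the same gene had a log2 fold change of 0.41 (SE 0.12, adjusted p = 0.0541), with 28, 31.4, 30.4 and 27.6 RPKM in Ad-LacZ and 39.3, 39.9, 35.8 and 42.8 RPKM in Ad-Cre, which did not overlap.

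Mrps24, the counterpart of bacterial S3, had 5.63, 8.30, 9.10 and 9.00 RPKM in Ad-LacZ_JNKi and 20.8, 14.1, 8.07 and 14.0 RPKM in Ad-Cre_JNKi. The groups overlapped at M2. Its log2 fold change of 0.83 (SE 0.25, adjusted p = 0.0456) dropped to 0.54 without F1 and was 1.08 without M2. It shares exonic bases on the same strand with Urgcp, which had a log2 fold change of 0.15 (SE 0.24, adjusted p = 0.696).

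Mrpl49, a large subunit protein found only in mitochondria, had 18.1, 18.02, 19.7 and 20.7 RPKM in Ad-LacZ_JNKi and 33.5, 31.4, 23.5 and 23.4 RPKM in Ad-Cre_JNKi, without overlap. Its log2 fold change was 0.64 (SE 0.18, adjusted p = 0.0336). Bases shared with any other annotated gene make up 4.85% of its exons. The coding gene that overlaps is Syvn1, on the opposite strand, which encodes an ER-associated degradation ligase. Syvn1 rose from 26.5 to 67.0 RPKM here (log2 fold change 1.41, SE 0.20, adjusted p = 0.00219), and its part in the value of Mrpl49 was not tested. Syvn1 rose from 27.1 to 68.4 RPKM without the inhibitor too, where Mrpl49 had 24.0 ± 5.29 RPKM in Ad-Cre and 20.7 ± 0.589 RPKM in Ad-LacZ.

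Mrpl30, Mrpl35 and Mrpl52 were higher in all 4 preparations. Scaled log2 differences within preparations were 0.42 to 0.55 for Mrpl30, 0.28 to 0.40 for Mrpl35 and 0.54 to 0.67 for Mrpl52, while differences in RPKM as deposited were less even. Mrpl30 and Mrpl35 have bacterial counterparts. Mrpl30 had 9.83, 9.77, 9.52 and 9.86 RPKM in Ad-LacZ_JNKi and 14.6, 13.1, 11.0 and 13.5 RPKM in Ad-Cre_JNKi, without overlap (log2 fold change 0.50, SE 0.14, adjusted p = 0.0362). Mrpl35 had 3.24, 3.76, 4.42 and 3.94 RPKM and then 4.60, 4.83, 4.77 and 4.501 RPKM, again without overlap (log2 fold change 0.34, SE 0.10, adjusted p = 0.0383). For Mrpl52 the values were 11.1, 10.1, 13.2 and 11.7 RPKM against 18.4, 13.8, 17.0 and 16.5 RPKM, and its log2 fold change of 0.60 (SE 0.13, adjusted p = 0.0124) was close to that without the inhibitor.

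Mrpl9, Mrps18b and Mrpl1 varied more under the inhibitor. Mrpl9 had 6.13, 9.25, 11.8 and 12.1 RPKM against 17.9, 18.3, 10.6 and 17.0 RPKM, overlapping through M2 (log2 fold change 0.78, SE 0.21, adjusted p = 0.028). Mrps18b had 4.61, 5.34, 5.20 and 5.51 RPKM against 9.87, 8.57, 5.45 and 7.75 RPKM, also overlapping through M2 (0.62, SE 0.18, adjusted p = 0.0375). Mrpl1 had 9.83, 8.84, 10.7 and 10.0 RPKM against 3.64, 5.50, 6.89 and 6.81 RPKM, with no overlap (-0.61, SE 0.16, adjusted p = 0.0278).

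The interaction of virus and inhibitor asks whether the inhibitor acts differently in the 2 viruses. Over the 76 members its median was 0.14, beside 0.009 over 12274 genes, with 67 of 76 above 0, and the medians were 0.12 for the large and 0.14 for the small subunit. In RPKM as deposited it was 0.002 beside -0.12 over all genes. Limma called 0 members and 0% of all genes tested, with or without the block. At an unadjusted p under 0.05 it called 0 members in either direction, against 1.87% higher and 1.35% lower of all genes tested. The block gave 4 higher and 0 lower, where 5.57% and 6.05% stood. The 5 members with the smallest unadjusted p were Mrps22 (0.29, SE 0.15), Mrps23 (0.41, SE 0.22), Mrpl35 (0.21, SE 0.11), Mrpl49 (0.48, SE 0.29) and Mrpl30 (0.31, SE 0.20), all with an adjusted p of 1.

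Members of the S18 family sit in both subunits. Mrps18c, in the place of bacterial S18, had 17.2 ± 2.14 RPKM in Ad-LacZ and 20.96 ± 1.33 RPKM in Ad-Cre (log2 fold change 0.27, SE 0.12, adjusted p = 0.162). Mrps18a, whose product lies in the large subunit despite its name, had 7.52 ± 0.910 and 8.35 ± 1.63 RPKM (0.12, SE 0.18, adjusted p = 0.684). Mrps18b thus passed the test in both virus comparisons and these relatives in neither, but the differences between the 3 genes were not tested. Mrps30, also a large subunit protein, had 2.98 ± 0.253 and 3.24 ± 0.135 RPKM (0.090, SE 0.11, adjusted p = 0.594). Mrps36, now known as a subunit of the 2-oxoglutarate dehydrogenase complex, had 4.49 ± 0.767 and 4.70 ± 0.356 RPKM (0.057, SE 0.15, adjusted p = 0.822).

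Members with further roles did not pass the test in any comparison. Mrpl12, which also binds the mitochondrial RNA polymerase, had log2 fold changes of 0.18 (SE 0.12) without and 0.24 (SE 0.15) with the inhibitor between viruses. Mrpl44, with a fold like RNase III, had 0.25 (SE 0.14) and 0.46 (SE 0.19). For Mrpl45, which holds the ribosome to the inner membrane, both were 0.22 (SE 0.089 and 0.12). Mrpl58, which frees stalled ribosomes, had 0.053 (SE 0.14) and 0.18 (SE 0.17), and Mrpl41 0.072 (SE 0.20) and 0.24 (SE 0.18). Of the members at the ends of the level range, Mrps21 had 52.8 ± 11.9, Mrpl10 41.8 ± 6.16, Mrps12 41.5 ± 8.00 and Mrps35 1.36 ± 0.0913 RPKM in Ad-Cre.

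Other genes of mitochondrial translation, taken from lists written for the pathway, moved in either direction. Their counts stand beside the 7.29% of all genes tested that were higher and the 9.58% that were lower. Of 5 subunits with other names, 1 rose and 0 fell in Ad-Cre against Ad-LacZ: Dap3, a GTP-binding small subunit protein, went from 6.61 ± 0.601 to 8.80 ± 0.355 RPKM (log2 fold change 0.36, SE 0.10, adjusted p = 0.044). Chchd1 had a difference of 0.35 (adjusted p = 0.1), Aurkaip1 of 0.27, Ptcd3 of -0.23 and Gadd45gip1, a large subunit protein, of -0.29, none called. Of 22 assembly factors tested, 2 rose, C1qbp (0.52, adjusted p = 0.0205) and Mpv17l2 (0.50, adjusted p = 0.0238), and 2 fell. Those were Mettl15, which methylates the small subunit's RNA (-0.77, adjusted p = 0.00555), and Mterf3 (-0.38, adjusted p = 0.0375).

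Of 14 translation factors, the elongation factors Tufm (0.48, adjusted p = 0.0398) and Tsfm (0.43, adjusted p = 0.0221) rose and Lrpprc, which stabilises mitochondrial mRNAs, fell from 21.4 ± 1.01 to 13.6 ± 0.670 RPKM (-0.62, adjusted p = 0.011). Among 20 genes of mitochondrial tRNA charging, Cars2 rose (0.43, adjusted p = 0.0228) and Rars2 fell (-0.60, adjusted p = 0.0233). None of 4 genes of mitochondrial DNA transcription passed. The medians of these lists were 0.27, 0.003, -0.14, -0.050 and -0.086, in the order given, beside -0.008 for all genes tested and 0.12 for the members. With the preparation as a block, where 15.7% of all genes tested were higher and 18.7% lower, Chchd1 (adjusted p = 0.0239), Noa1 (0.0144), Rbfa (0.0155), Mrm1 (0.0292) and Slirp (0.0354) were also called higher and Mtif2 (0.0212) lower. Mrm1 and Mtif2 were named after their values were seen.

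Under the inhibitor the same lists had 2 of 5 other-named subunits higher (Chchd1 at 0.55 and Dap3 at 0.51), 3 of 22 assembly factors higher and 1 lower, 1 of 14 translation factors higher and 1 lower, 1 of 20 charging genes higher and 2 lower, and 1 of 4 transcription genes lower (Tefm at -0.35). Of all genes tested 10.1% were higher and 10.5% lower. C1qbp, a protein of the mitochondrial matrix, rose there from 12.0 ± 0.914 to 24.3 ± 3.19 RPKM (log2 fold change 1.08, SE 0.13, adjusted p = 0.000933). Noa1 (0.63) and Rbfa (0.59) were the other assembly factors that rose and Mettl15 (-0.62) the one that fell. Slirp (0.41), the partner of Lrpprc, rose while Lrpprc fell (-0.56), Cars2 rose (0.60), and Rars2 (-0.71) and Nars2 (-0.35) fell. With the block, Nars2 (adjusted p = 0.0631) and Tefm (adjusted p = 0.0529) were no longer called, and Mpv17l2 (adjusted p = 0.0443) and Tufm (adjusted p = 0.046) were called higher. In both comparisons of the inhibitor, 0 genes of these lists passed the adjusted p without the block. With it 1 did, C1qbp in Ad-Cre_JNKi against Ad-Cre (log2 fold change 0.63, adjusted p = 0.0163 with and 0.264 without the block). The listed mRNAs encoded in mitochondrial DNA are not among the genes of the deposited values, so they could not be analysed here.

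Group medians of summed markers of other cells differed as well. Ranges over libraries overlapped between all groups for the alpha, delta, stellate or fibroblast and endothelial lists. Stellate or fibroblast markers, for example, spanned 164 to 554 RPKM in Ad-LacZ and 177 to 1815 RPKM in Ad-Cre. Duct markers stood apart in Ad-LacZ_JNKi, at 442 to 1000 RPKM. Those of Ad-Cre_JNKi (339.7 to 395.5 RPKM) also lay above Ad-LacZ (183.8 to 326.5 RPKM) but overlapped Ad-Cre (176.4 to 402.6 RPKM). PP cell markers overlapped except between Ad-LacZ_JNKi and Ad-Cre_JNKi. The summed level of 6 macrophage markers had medians of 70.9 RPKM in Ad-LacZ (66.1 to 74.7), 125 in Ad-Cre (64.9 to 194), 241 in Ad-LacZ_JNKi (130 to 304) and 212 in Ad-Cre_JNKi (167 to 287). For 5 duct cell markers the medians were 262, 251, 681 and 356 RPKM in the same order, and for 5 alpha cell markers 13290, 13070, 13020 and 20370 RPKM. The 6 stellate cell or fibroblast markers had medians of 312, 488, 532 and 292 RPKM, and the 5 endothelial markers 17.4, 18.4, 22.4 and 25.5 RPKM. The 3 delta cell markers had medians of 2201, 2263, 2558 and 3330 RPKM, and the 2 PP cell markers 4464, 4700, 3170 and 4985 RPKM. None of these lists had a marker at 0 throughout a group, and their part in the shifts of the members was not tested.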

How the data were processed

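The deposited values are RPKM. The authors sequenced read pairs and counted them after alignment to mouse. GRCm38 is named in the submitters' processing notes. The aligner's settings, the gene lengths and the step from counts to RPKM are not given in the sources used here. The table has 16 columns that match the labels, and a further 3 columns were not used. Depth was read from the size of 1 read in low RPKM values times exonic length (GENCODE M21), at which 94.5% to 95.8% of low values fell within 0.1 of whole reads. Depth was 7.7 to 25.5 M reads, and intervals of counting error were not computed, since tests rest on the spread between libraries.

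Libraries were scaled by unweighted TMM (trim 30% of ratios and 5% of levels). The log2 of RPKM plus 1 went into limma 3.58.1 (R 4.3.3), by lmFit and then eBayes with a trend. A gene entered if it exceeded 1 RPKM in 4 or more of a comparison's libraries. Each comparison used the 8 libraries of its groups without a block, and the interaction all 16. Adjusted p is limma's p after Benjamini-Hochberg over all genes tested. Tables were made with Python 3.11.15. Simulated data for Ad-Cre against Ad-LacZ, with independent libraries, were used to test the steps, so this check did not cover pairing by preparation.

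In the study's methods both viruses were applied side by side to islet cells of a shared replicate, so the preparation pairs the libraries. Residual correlations between libraries of 1 preparation were 0.486 to 0.721, 0.646 to 0.821, 0.131 to 0.826 and 0.158 to 0.663 in the 4 comparisons, and the mean over other pairs was -0.23 to -0.129. Each preparation carries 2 animal numbers in the labels, and the study counts 4 mice in all.

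Members and lists were chosen with earlier results of these data known. Members are named by a rule: per comparison the 8 largest called rises and falls, or, under 3 calls, the 5 smallest unadjusted p; the 3 highest and 3 lowest in Ad-LacZ; those failing the filter; those whose place differs from their name with the S18 relatives; and those with further roles. Promoters came from the RefSeq table (GRCm38.p6). Alternatives were a pseudocount of 0.1, a filter at 0.1 RPKM or none, quantile normalization, unscaled values as deposited, 1 fit of all 16 libraries, the block, no eBayes trend, and leaving out each replicate. The block joined with another scaling was added after the data were seen.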

Additional observations from a re-analysis of the deposited data

Results flagged for a closer look

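In 4 of 120 groups of 4 libraries, 1 library stood far from the other 3 by Dixon's criterion at the 95% level, and chance alone marks about 1 group in 20. Mrpl32 had 4.82 RPKM in the M2 library of Ad-Cre_JNKi, where the other 3 had 3.45 to 3.60. Mrps35 had 1.87 RPKM in that same library, where the others had 1.32 to 1.41. Mrpl9 had 9.03 RPKM in the F2 library of Ad-LacZ, below 11.3 to 11.7 in the others. Mrps36 had 5.23 RPKM in the F1 library of Ad-Cre, above 4.45 to 4.58.

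For 2 of the 76 members every preparation moved one way with the inhibitor in Ad-Cre and the other way in Ad-LacZ. Mrpl49 differed by 0.24 to 0.60 on the log2 scale in Ad-Cre and by -0.18 to -0.024 in Ad-LacZ, with an interaction of 0.48 (SE 0.29, adjusted p = 1 from limma). Mrps23 differed by 0.15 to 0.41 in Ad-Cre and by -0.18 to -0.065 in Ad-LacZ, with an interaction of 0.41 (SE 0.22, adjusted p = 1 from limma). Neither difference between the viruses passed the test.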

How the results depend on the processing

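No called member changed sign. The member median less the all-gene median of Ad-LacZ_JNKi against Ad-LacZ, 0.013, became -0.011 with no filter and 0 with a filter at 0.1 RPKM, and those of the other comparisons kept their sign. In RPKM as deposited the member median of Ad-Cre_JNKi against Ad-Cre went from 0.12 to -0.018. Between Ad-Cre and Ad-LacZ, 4 members were called, 7 in RPKM as deposited, 14 with the replicate block, 14 with the block on RPKM as deposited and 13 with the block and quantile normalization. Leaving out each replicate gave 0 to 1, and the block moved no other count of called members by over 1.5 times except where it was joined with another scaling. Between Ad-Cre_JNKi and Ad-LacZ_JNKi, 9 were called, 2 with no filter, 14 with all 16 libraries in 1 fit, 5 with the block on RPKM as deposited, 14 with the block and quantile normalization, and 0 to 17 with a replicate left out (17 without M2, 4 without the Ad-Cre_JNKi library of F2). The causes were not tested, other than that leaving out a replicate leaves fewer libraries. The member median less the all-gene median kept within the spread between preparations under every alternative run, at 0.065 to 0.15 (Ad-Cre against Ad-LacZ), 0.11 to 0.17 (inhibitor in Ad-Cre) and 0.19 to 0.27 (viruses under inhibitor) with a replicate left out. With 4 libraries a group, differences of the size most members had are near the median SE of 0.11 to 0.16. That SE is from the fit without the block, which leaves the pairing out. A member that was not called is thus not shown to be the same in both groups.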

Other observations

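The preparations differed among themselves in the mean level of the members. Over the 76 members the mean log2(RPKM + 1), after scaling of all 16 libraries together, was lowest in M2 in each of the 4 treatments. It was 3.175 in M2 and 3.31 to 3.36 in the others with Ad-LacZ, and 3.27 in M2 and 3.37 to 3.75 in the others with Ad-Cre_JNKi. Over 12274 genes above the filter the mean was between 3.03 and 3.13 in every library. Without members whose exons overlap a coding gene, 54 were left, with medians of 0.12 between Ad-Cre and Ad-LacZ and 0.215 between the viruses under inhibitor.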
